A study of Mus musculus with 9 samples.

Results

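The change between day 3 and day 6 of differentiation was examined in C2C12 cells, an immortalised mouse myoblast line derived from skeletal muscle. All circular RNAs (circRNAs) of the study were compared between 3 day 6 libraries and 3 day 3 libraries, 6 of the 9 libraries in the study. Proliferating cells in growth medium with fetal bovine serum, collected before confluence (day 0, 3 libraries), served as the starting point. At confluence the cells had been moved to medium with less serum, from horse, which drives myoblasts to leave the cell cycle and fuse. The labels name no allele or drug, all samples come from 1 cell line, and the libraries hold total RNA treated to enrich circRNAs. Whether libraries of 1 day stem from separate cultures is not stated in the labels. The p-values therefore speak only of the spread among these libraries, which may be technical. The question was which circRNAs go on rising or falling after the first switch, between the early myotube stage at day 3 and the later stage at day 6.

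A circRNA is a closed loop that forms when a splice donor joins an acceptor that lies upstream of it, and it is recognised in sequencing by reads that cross this back-splice junction. Because a loop has no free ends it resists exonucleases, and it can persist in cells that no longer divide. Myoblast differentiation is a sequence of cell cycle exit, fusion into multinucleated myotubes and later assembly of the contractile and membrane apparatus, while some cells stay single as reserve cells.

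The junctions of 6 circRNAs that the results below turn on are shown as 25 nt before the back-splice in lower case and 25 nt after it in capitals, 5′ to 3′ on the strand of the gene. They were assembled from GENCODE M21 transcripts (mouse build GRCm38) and lie in coding sequence on both sides. They are the Spag5, Bub1b and Cd44 circles that were lower at day 6, the leading circle of Pkhd1, the host that was higher, and the Ablim1 and Ust circles, which had higher means at day 6 that did not pass the test.
Spag5, chr11:78319986-78321766 (+), exons 17 to 23: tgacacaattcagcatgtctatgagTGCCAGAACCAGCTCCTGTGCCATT
Bub1b, chr2:118631759-118635277 (+), exons 17 to 19: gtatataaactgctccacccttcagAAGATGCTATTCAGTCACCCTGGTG
Cd44, chr2:102831330-102837938 (-), exons 12 to 15: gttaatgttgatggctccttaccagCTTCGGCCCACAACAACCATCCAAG
Pkhd1, chr1:20198018-20239438 (-), exons 53 to 60: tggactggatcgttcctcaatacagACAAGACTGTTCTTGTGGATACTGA
Ablim1, chr19:57061253-57068937 (-), exons 11 to 14: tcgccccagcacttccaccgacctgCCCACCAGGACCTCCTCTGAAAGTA
Ust, chr10:8298056-8330223 (-), exons 3 to 5: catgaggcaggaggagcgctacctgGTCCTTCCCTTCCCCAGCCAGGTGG
The spliced lengths of the first 4 circles, summed over the annotated exons they span, were 713 nt for Spag5, 392 nt for Bub1b, 525 nt for Cd44 and 1851 nt for Pkhd1.

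Libraries held 297409 to 353680 back-splice reads at day 3 and 208787 to 443955 at day 6, and the totals did not separate the days (two-sided exact permutation p = 0.9, n = 3 per day, where 0.1 is the smallest p possible). The number of circRNAs listed was 9743 ± 132 per library at day 3 and 8798 ± 1773 at day 6 (SD, n = 3, exact permutation p = 0.4). Intronic circRNAs took 3.38% ± 0.067 of reads at day 3 and 3.39% ± 0.19 at day 6 (exact permutation p = 1). The 100 circRNAs with most reads in a library took 26.3% ± 0.57 and 26.9% ± 1.22 (exact permutation p = 0.5). The smallest count above 0 in the table is 2, so a circRNA described as without reads may have had 1.

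The stage of the cells was checked on circRNA reads of marker genes, in CPM, the library-scaled count of back-splice reads. The marker lists were chosen with earlier results of these data known. Of 15 myotube markers, 10 are hosts of circRNAs in the table, and their summed level was 9240 to 10905 CPM at day 3 and 11374 to 14990 at day 6, so that each day 6 library was above each day 3 library (exact permutation p = 0.1). Without Ttn, the gene of titin, the giant spring of the sarcomere, the sums were 2310 to 2905 and 3866 to 4989. Of 10 markers of proliferating cells, a list that includes Spag5 and Bub1b, 9 are hosts, and their sum was 1152 to 1331 CPM at day 3 and 439 to 553 at day 6, without overlap (exact permutation p = 0.1), from 5347 to 6295 at day 0. Spag5 alone made up 403, 702 and 1038 CPM of the day 3 sums and 160, 237 and 234 CPM of the day 6 sums. It was the 1 tested host of the list that was separated between the days, and without it the sums overlapped. Ccnb1, Bub1 and Kif11 of that list had no circRNA reads on either day. Reserve cell markers, of which 4 of 10 are in the table, summed to 608 to 823 CPM and 664 to 773 (exact permutation p = 0.7). The sums for adipocyte (1 of 6 in the table), osteoblast (2 of 6) and fibroblast markers (5 of 5) overlapped between the days, with exact permutation p = 0.5, 0.4 and 0.8. The defining genes Adipoq, Fabp4, Sp7 and Bglap had no circRNA reads on either day. The same held for Myh8, Myh2, Myh4, Actn2 and Mymk of the myotube list, so a lack of circRNA reads does not show that a cell type is absent. In bulk samples fewer cells of a type and less RNA per cell cannot be told apart, and the part of a falling share of cycling cells in the losses below was not tested.

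Few circRNAs passed the test of day 6 against day 3, and those that did by edgeR all fell. Of 8153 circRNAs with enough reads to test, 5 were lower at day 6 than at day 3 (0.0613%) and 0 were higher (0%) by edgeR's quasi-likelihood test with Benjamini-Hochberg adjusted p below 0.05. The filter took in all 9 libraries, so a circRNA could be kept by its day 0 reads alone. Such circRNAs lower the shares given here, and the filter on days 3 and 6 alone kept 5944. The 5 are circles of Zbtb38, Spag5, Bub1b, Cd44 and Zfp516. All 5 are exonic, 2 are listed in circBase (Bub1b and Zfp516), and 3 had no reads in any day 6 library. At an unadjusted p below 0.05 the same test gave 144 higher (1.77%) and 210 lower (2.58%), and DESeq2 gave 2 higher (0.0245%) and 20 lower (0.245%) after adjustment. The first step, from day 0 to day 3, changed 107 circRNAs upward (1.31%) and 22 downward (0.270%) in the same fit. All of the day 6 losses were called with the day 0 libraries in the fit, which then add to the estimate of the spread. When only the 6 libraries of days 3 and 6 were fitted, edgeR called 0 of 5944 circRNAs lower and 0 higher, with an adjusted p of 0.694 for each of the 5. That fit gave 121 higher and 172 lower at an unadjusted p below 0.05, and DESeq2 on the same 6 libraries gave 19 higher and 22 lower after adjustment.

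**Figure D1:**
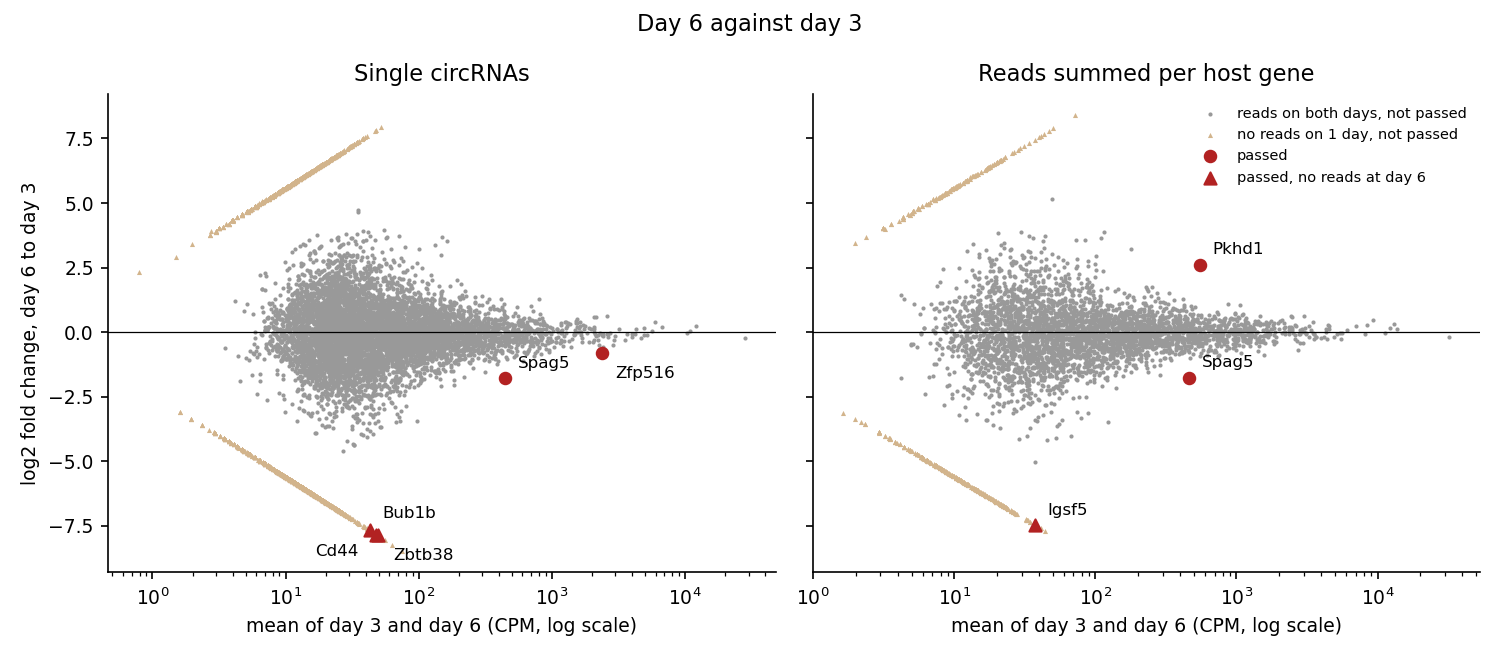
Log2 fold change of day 6 to day 3 (y axis) against the mean level of the 2 days in CPM (x axis, log scale), with 1 point per tested circRNA (left, 8153) or host gene (right, 4135). Red marks features that passed at adjusted p below 0.05; triangles are features without reads on 1 of the days, whose fitted value depends on the prior count and only shows their direction. All 5 circRNAs that passed lie below 0, and of the hosts Pkhd1 lies above 0 and Spag5 and Igsf5 below.

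Of the 2 circles that still had reads at day 6, that of Spag5 fell further; the gene encodes the spindle and kinetochore protein astrin. The exon 17 to 23 circle had 398, 694 and 988 CPM in the day 3 libraries and 148, 223 and 234 CPM at day 6, after 3004, 3231 and 3801 CPM in proliferating cells. Every library of a later day was below every library of the earlier day. The day 6 mean was 3.42-fold lower than that of day 3 (log2 fold change -1.77 ± 0.26 SE, edgeR adjusted p = 3.9e-05), and the step from day 0 to day 3 had a log2 fold change of -2.27. This circle carried nearly all reads of the gene, as the summed Spag5 reads were 403, 702 and 1038 CPM at day 3 and 160, 237 and 234 at day 6.

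A second mitotic gene, Bub1b, encodes the spindle checkpoint kinase BubR1. Its exon 17 to 19 circle had 77.0, 137 and 44.0 CPM at day 3, no reads in the 3 day 6 libraries, and 269, 301 and 279 CPM at day 0. The days did not overlap, and against a floor of 3 reads per library the day 6 level was at least 7.87-fold lower than that of day 3 (edgeR adjusted p = 0.0094). This bound and those given below cover counting error only. Libraries of 1 day differed by more than that (chi-square per degree of freedom 11.8 to 13.1). The whole host, summed over its 9 circRNAs, went from 132 ± 79 CPM to 19.7 ± 34.1 (SD, n = 3) and did not pass (edgeR adjusted p = 0.699). In day 6 replicate 3, the deepest library, 2 other Bub1b circles had reads. The host passed as lower when that library was left out (edgeR adjusted p = 8.2e-06) and without a filter on low counts (0.048).

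Cd44 encodes the receptor for the matrix glycan hyaluronan. Its exon 12 to 15 circle had 96.3, 87.6 and 111 CPM at day 3, no reads at day 6, and 212, 285 and 187 CPM at day 0. The day 6 level was at least 9.02-fold lower than at day 3 (edgeR adjusted p = 0.014), and the adjusted p was 0.071 when day 6 replicate 3 was left out. The day 3 libraries lay within a narrow band and all day 6 libraries below it. Of 23 Cd44 circRNAs in the table, 9 had reads at day 3 and 5 at day 6, and the host sum of 187 ± 56 CPM at day 3 and 53.3 ± 56.0 at day 6 did not pass (edgeR adjusted p = 0.736).

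The loss with the highest level was that of Zfp516, a zinc finger transcription factor known for its part in brown fat. Its single-exon circle (exon 2, 1926 nt) had 3236, 2643 and 3274 CPM at day 3, 1433, 1947 and 1849 CPM at day 6, and 4276, 4808 and 4494 CPM at day 0. The 3 days did not overlap. The day 6 mean was 1.75-fold lower than that of day 3 (log2 fold change -0.81 ± 0.17 SE, edgeR adjusted p = 0.014). This call was the least stable of the 5: the adjusted p was 0.19 with a minimum count of 10 in the filter, 0.054 with all libraries thinned to the lowest total and 0.078 without day 6 replicate 1. The step from day 0 to day 3 did not pass for this circle (edgeR adjusted p = 0.060).

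**Figure D2:**
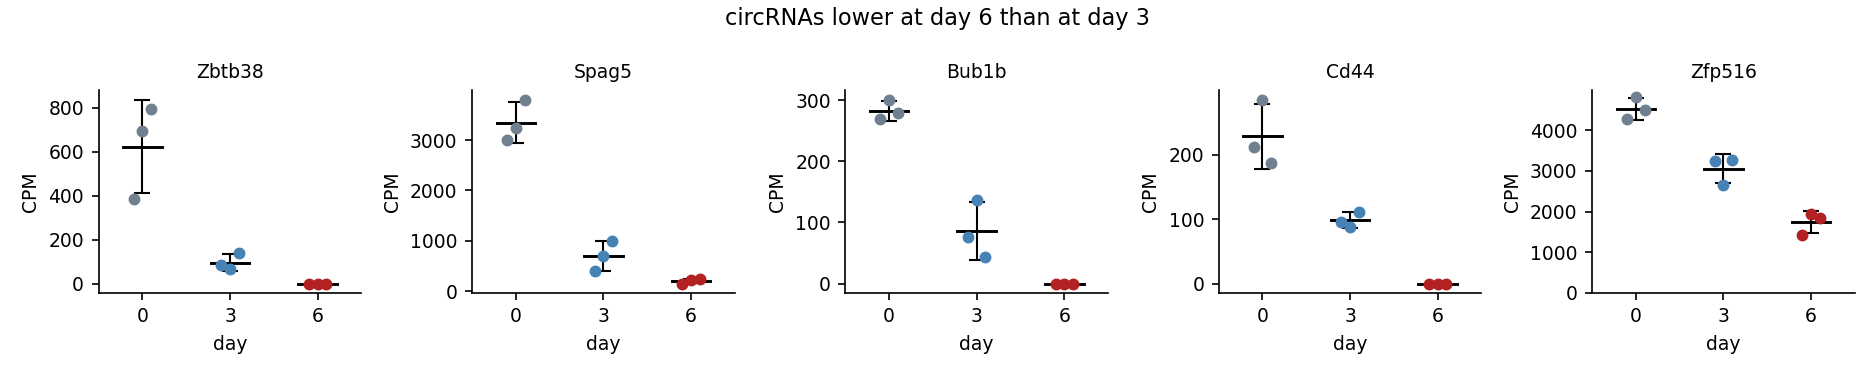
Level in CPM (y axis, linear, each panel on its own scale) of the 5 circRNAs that were lower at day 6 than at day 3, by day (x axis), with 1 point per library, the mean as a bar and the SD as whiskers (n = 3). Zbtb38, Bub1b and Cd44 sit at 0 in all day 6 libraries, and in each panel the day 6 points lie below the day 3 points.

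The fifth circle comes from Zbtb38, which encodes a zinc finger protein that binds methylated DNA and represses transcription. It spans chr9:96718210-96752573 on the minus strand and had 83.5, 66.6 and 138 CPM at day 3, no reads at day 6, and 384, 694 and 792 CPM at day 0. The day 6 level was at least 8.79-fold lower than at day 3 and at least 57.1-fold lower than at day 0 (edgeR adjusted p = 1.1e-05 for day 6 against day 3). Its 5′ boundary lies inside the first annotated exon of the gene and not at an exon edge, so no junction is shown for it.

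Zbtb38 was also the 1 host of 1649 with at least 2 tested circRNAs (0.0606%) whose circRNAs changed by different amounts from day 3 to day 6 (edgeR diffSpliceDGE, F = 11.5 over 5 tested circRNAs, adjusted p = 4.2e-06). At an unadjusted p below 0.05 there were 106 such hosts (6.43%). The adjusted p was 0.063 when day 6 replicate 3 was left out and 0.999 when only days 3 and 6 were fitted. The following split by boundary was chosen after the values were seen and carries no test. The 9 Zbtb38 circRNAs that share the 5′ boundary at position 96752573 summed to 603, 1045 and 1138 CPM at day 0 and 83.5, 126 and 176 at day 3, and none had reads at day 6. The 4 circRNAs with the 5′ boundary at 96732313, which is the start of exon 3, summed to 2027, 1897 and 2500 CPM at day 0, 1859, 1325 and 1240 at day 3, and 1141, 1627 and 1986 at day 6. The exon 3 circles overlapped between day 3 and day 6, while the circles reaching into the first exon did not. Of those 9, only 3 had reads at day 3 and 2 were tested singly. The 1 other Zbtb38 circRNA, with its 5′ boundary at 96732502, had 44.9 CPM in day 6 replicate 1 and no reads elsewhere. The host as a whole had 1616 ± 306 CPM at day 3 and 1664 ± 356 at day 6 (SD, n = 3, log2 fold change 0.04 ± 0.21 SE, edgeR adjusted p = 1). The hosts next in order of p did not pass this test, with adjusted p = 0.097 for Cd44 and 0.18 for Racgap1, a regulator of cytokinesis.

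No single circRNA was higher at day 6 by edgeR, and the 5 with the smallest p in that direction are given as values only. The circle of exons 2 and 3 of Nos1, which encodes the neuronal nitric oxide synthase held at the muscle membrane by the dystrophin complex, had 32.1 and 31.6 CPM in day 3 replicates 1 and 2, no reads in replicate 3, and 332, 349 and 154 CPM at day 6. It had no reads at day 0. The log2 fold change was 3.69 ± 1.25 SE, with an adjusted p of 0.664 by edgeR and 0.048 by DESeq2. The circle of Ablim1, an actin-binding LIM domain protein, had 45.6 and 32.2 CPM in day 3 replicates 2 and 3 and none in replicate 1, against 238, 195 and 464 CPM at day 6 (log2 fold change 3.51 ± 1.16 SE, edgeR adjusted p = 0.664). For both circles all day 6 libraries were above all day 3 libraries.

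The other 3 had no reads at day 3 but had reads in proliferating cells. The circle of Spop, a substrate adaptor of a cullin ubiquitin ligase, had 65.6, 166 and 195 CPM at day 0, none at day 3, and 26.95, 85.2 and 82.9 CPM at day 6. That is at least 6.74-fold higher at day 6 than at day 3, with an adjusted p of 0.615 by edgeR and 0.011 by DESeq2. The circles of Tmem161b, a membrane protein, and Sart3, a factor in spliceosome recycling, had reads in 2 of 3 day 6 libraries each, with means of 53.5 ± 53.9 and 96.0 ± 86.0 CPM (SD, n = 3, edgeR adjusted p = 0.664 for both).

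Summing all circRNAs of a gene gave 4135 hosts to test, of which 3 (0.0726%) changed from day 3 to day 6 by edgeR's quasi-likelihood test, 1 upward (0.0242%) and 2 downward (0.0484%). A host, too, could pass the filter by its day 0 reads alone, and the filter on days 3 and 6 kept 3368. The unadjusted counts were 95 (2.30%) and 151 (3.65%), and DESeq2 gave 9 (0.218%) and 10 (0.242%) after adjustment. From day 0 to day 3 the same fit called 126 hosts higher (3.05%) and 37 lower (0.895%).

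The host that rose was Pkhd1, which encodes fibrocystin, a membrane protein of epithelial cilia whose loss causes polycystic kidney and liver disease. Its circRNAs summed to 185, 102 and 174 CPM at day 3 and 960, 1112 and 751 CPM at day 6, and no reads were listed at day 0. All day 6 libraries were above all day 3 libraries, and the mean was 6.09-fold higher (log2 fold change 2.61 ± 0.43 SE, edgeR adjusted p = 0.0018). The log2 fold change stayed between 2.39 and 2.76 and passed under each alternative tried, including the fit of days 3 and 6 alone. The reads were spread over 23 circRNAs, of which 10 had reads in a day 3 library and 22 in a day 6 library. Only 3 of the 23 had reads in all 3 day 6 libraries, and none of the 6 tested singly passed. The leading exon 53 to 60 circle had 77.0, 21.03 and 0 CPM at day 3 and 296, 252 and 239 CPM at day 6. The circle of exons 34 and 35 had 70.1 CPM in day 3 replicate 2, none in the other two, and 296, 195 and 232 CPM at day 6.

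**Figure D3:**
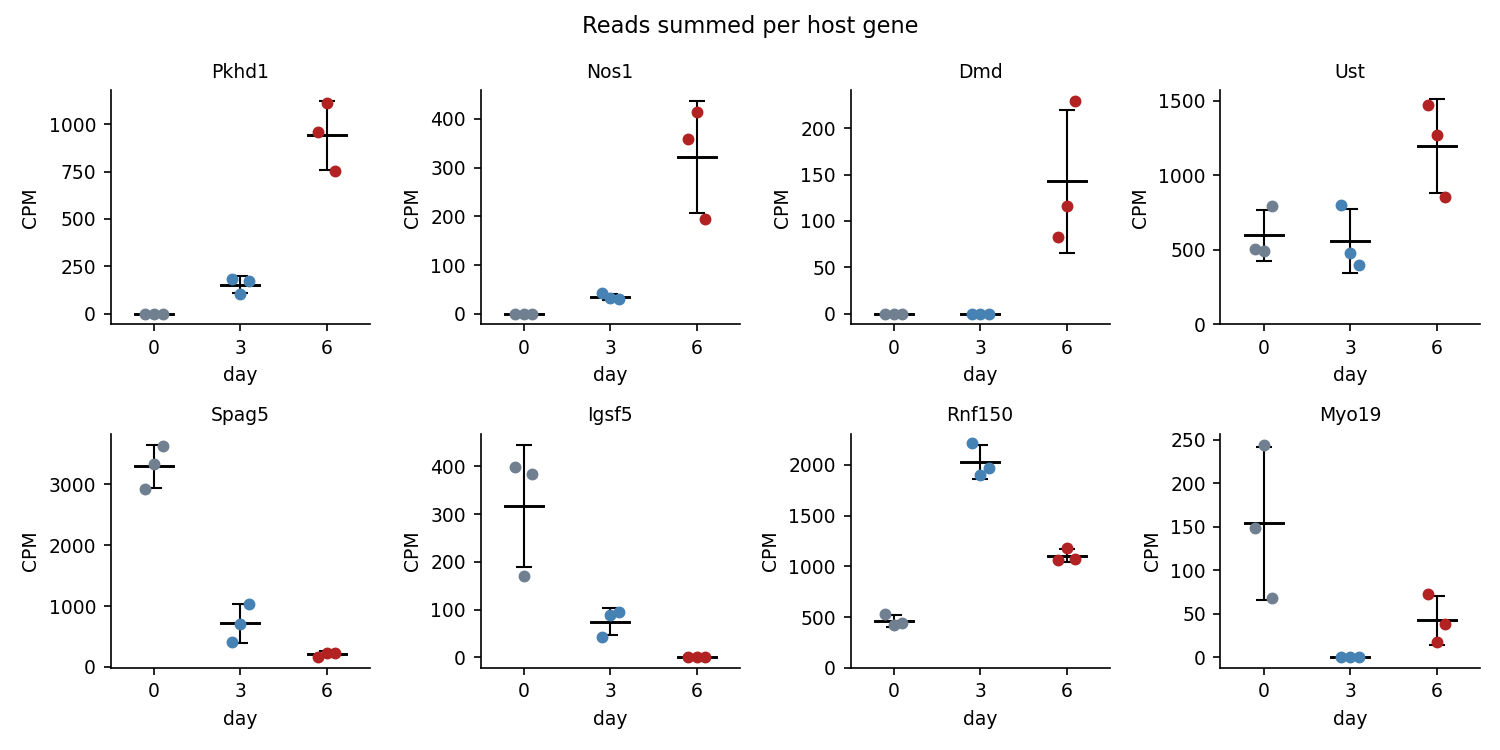
Reads summed over all circRNAs of a host in CPM (y axis, linear, each panel on its own scale) by day (x axis), with 1 point per library, the mean as a bar and the SD as whiskers (n = 3). Pkhd1, Spag5 and Igsf5 passed the test of day 6 against day 3, and Nos1, Dmd, Ust, Rnf150 and Myo19 did not; Rnf150 is highest at day 3.

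Besides Spag5 (log2 fold change -1.76 ± 0.27 SE, edgeR adjusted p = 6.4e-04), the host that fell was Igsf5, an immunoglobulin superfamily protein of cell junctions. Its 6 circRNAs summed to 42.3, 87.8 and 94.4 CPM at day 3, had no reads at day 6, and stood at 399, 169 and 383 CPM at day 0. The level was at least 6.49-fold lower at day 6 than at day 3 (edgeR adjusted p = 0.015). This call rested on the day 0 libraries as well, as the adjusted p was 0.056 without day 0 replicate 1 and 0.14 without day 0 replicate 3. With days 3 and 6 alone, edgeR called 0 of 3368 hosts lower, with adjusted p = 0.14 for Spag5 and 0.75 for Igsf5, and Pkhd1 was again the 1 host it called higher. That fit gave 91 hosts higher and 102 lower at an unadjusted p below 0.05, and DESeq2 on the same 6 libraries called 28 higher and 9 lower after adjustment.

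Several hosts had large differences that did not pass. Nos1, at 42.3, 31.6 and 29.5 CPM at day 3, had 359, 414 and 194 CPM at day 6, a 9.23-fold higher mean (log2 fold change 3.21 ± 0.98 SE, edgeR adjusted p = 0.699, DESeq2 0.0035). Dmd, which encodes dystrophin, had no circRNA reads in any day 0 or day 3 library. Its day 6 libraries reached 82.4, 116 and 229 CPM, which is at least 14.7-fold higher than day 3 (edgeR adjusted p = 0.699, DESeq2 0.015). The Dmd reads came from 10 circRNAs, each seen in 1 library only. For both genes of the dystrophin complex each day 6 library was above each day 3 library.

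Ust, a sulfotransferase that modifies chondroitin and dermatan sulfate, had 804, 478 and 398 CPM at day 3 and 1469, 1267 and 853 CPM at day 6 (log2 fold change 1.09 ± 0.30 SE, edgeR adjusted p = 0.640, DESeq2 0.047). The days did not overlap, and the day 0 level was 597 ± 171 CPM, near that of day 3. Myo19, a myosin of mitochondria, was without reads at day 3, reached 72.7, 17.2 and 37.8 CPM at day 6, and had 149, 244 and 68.3 CPM at day 0 (edgeR adjusted p = 0.699, DESeq2 0.037).

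In the falling direction, Rnf150, which encodes a membrane RING finger protein, had 2212, 1900 and 1967 CPM at day 3 and 1067, 1177 and 1075 CPM at day 6 (log2 fold change -0.87 ± 0.23 SE, edgeR adjusted p = 0.405, DESeq2 8.3e-04). It had 533, 426 and 437 CPM at day 0 and had passed as higher at day 3 (log2 fold change 2.12, edgeR adjusted p = 5.5e-08), so its day 6 libraries lay between those of the other days. Kif14, a kinesin of cytokinesis, had 52.7 and 79.6 CPM in day 3 replicates 2 and 3, none in replicate 1 and none at day 6 (edgeR adjusted p = 0.640, DESeq2 0.040). The Zfp516 host sum did not pass by edgeR (log2 fold change -0.68 ± 0.17 SE, adjusted p = 0.289), while it did by DESeq2 (9.0e-04) and by edgeR without a filter on low counts (0.021).

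Continued change was then counted on the edgeR calls only. It meant a call at day 3 against day 0, then a call in the same direction at day 6 against day 3. Both comparisons share the day 3 libraries, so their values are set side by side and no relation between them was tested. Of 107 circRNAs higher at day 3, 0 were called higher again at day 6, and of 22 lower at day 3, 2 were called lower again, Zbtb38 and Spag5. Over all 8153 tested circRNAs 0 were called higher at day 6 and 0.0613% lower. The 0 of 107 therefore does not set the circRNAs that rose first apart from the rest. Of 126 hosts higher at day 3, 1 was called higher again, Pkhd1, and of 37 lower, 1 was called lower again, Spag5. Over all 4135 tested hosts the shares called were 0.0242% higher and 0.0484% lower. No circRNA or host called by edgeR at the first step was called by edgeR in the opposite direction at the later one. DESeq2 did give opposite calls at day 6. It called Rnf150 lower (adjusted p = 8.3e-04) after edgeR had called it higher at day 3. Myo19 and the Spop circle, called lower at day 3 by edgeR (adjusted p = 0.014 and 0.017), were called higher by DESeq2 (0.037 and 0.011).

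Muscle hosts that were called higher at day 3 than at day 0 did not pass edgeR's test of day 6 against day 3. Nos1 and Sorbs2 had been called higher at day 3 by edgeR (adjusted p = 0.0077 and 9.0e-07). DESeq2 called both higher again at day 6 (adjusted p = 0.0035 and 0.017). Ttn circRNAs summed to 6930, 8380 and 7301 CPM at day 3 and 10001, 7508 and 10098 at day 6, from 37.2 ± 38.0 at day 0 (day 6 to day 3 log2 fold change 0.29 ± 0.27 SE, edgeR adjusted p = 1). Its leading circle, exons 125 to 129, had 6289 ± 844 and 7222 ± 1329 CPM (SD, n = 3). The calcium release channel gene Ryr1 had 2160, 2300 and 2742 CPM at day 3 and 4446, 3138 and 3421 CPM at day 6 (log2 fold change 0.61 ± 0.24 SE, edgeR adjusted p = 0.736). The days did not overlap for Ryr1, while they did for Ttn.

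Lrp4, the agrin receptor of the neuromuscular junction, had 1825, 1904 and 2244 CPM at day 3 and 2807, 3039 and 3020 CPM at day 6 (log2 fold change 0.57 ± 0.24 SE, edgeR adjusted p = 0.736), also without overlap. Adgrl3, an adhesion receptor of the latrophilin family, had 2698 ± 97 CPM at day 3 and 2528 ± 86 at day 6. Hsf2bp, a factor of meiotic recombination, had 570 ± 46 and 650 ± 78 CPM (SD, n = 3). Neither difference passed (edgeR adjusted p = 1 for both).

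Among single circles of the first rise, that of Abca1, the cholesterol exporter, was not seen at day 0 and had 292, 245 and 346 CPM at day 3 and 463, 527 and 637 CPM at day 6, without overlap between the days (log2 fold change 0.88 ± 0.53 SE, edgeR adjusted p = 0.682). The circle of utrophin (Utrn, exons 61 to 65), the dystrophin relative, had 4637 ± 437 and 5190 ± 193 CPM. That of Stau2, a double-stranded RNA-binding protein, had 599 ± 314 and 480 ± 214 CPM (SD, n = 3). Neither passed (edgeR adjusted p = 1 for both).

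Of the 6 hosts with the smallest p among those lower at day 3, 5 did not pass at day 6. Espl1, which encodes the protease separase, had 381, 478 and 546 CPM at day 3 and 373, 142 and 156 CPM at day 6, from 1672 ± 118 at day 0 (log2 fold change -1.08 ± 0.32 SE, edgeR adjusted p = 0.699), and passed without day 6 replicate 1 (adjusted p = 0.0062). Diaph3, an actin-nucleating formin, had 558 ± 142 CPM at day 3 and 351 ± 179 at day 6, and the noncoding RNA Pvt1 had 1320 ± 360 and 906 ± 278. Ltbp1, which binds latent TGF-beta, had 1350 ± 340 and 1171 ± 212 CPM, and Gstcd had 184 ± 72 and 229 ± 32 (SD, n = 3). Their adjusted p values by edgeR were 0.736 for Diaph3 and Pvt1 and 1 for Ltbp1 and Gstcd.

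The circles of 3 other genes that had fallen, each tested singly, showed the range at day 6. That of Agap1, an Arf GTPase-activating protein, had 1059, 1041 and 1451 CPM at day 3 and 584, 860 and 746 CPM at day 6 (log2 fold change -0.70 ± 0.23 SE, edgeR adjusted p = 0.664). That of Lin54, a DNA-binding subunit of the DREAM complex of cell cycle genes, had 857 ± 117 and 594 ± 140 CPM (SD, n = 3, edgeR adjusted p = 0.664). That of Bcat1, an enzyme of branched-chain amino acid breakdown, had 358 ± 117 and 336 ± 75 CPM (edgeR adjusted p = 1). The Agap1 and Lin54 libraries of day 6 lay below those of day 3, and the Bcat1 libraries overlapped.

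**Figure D4:**
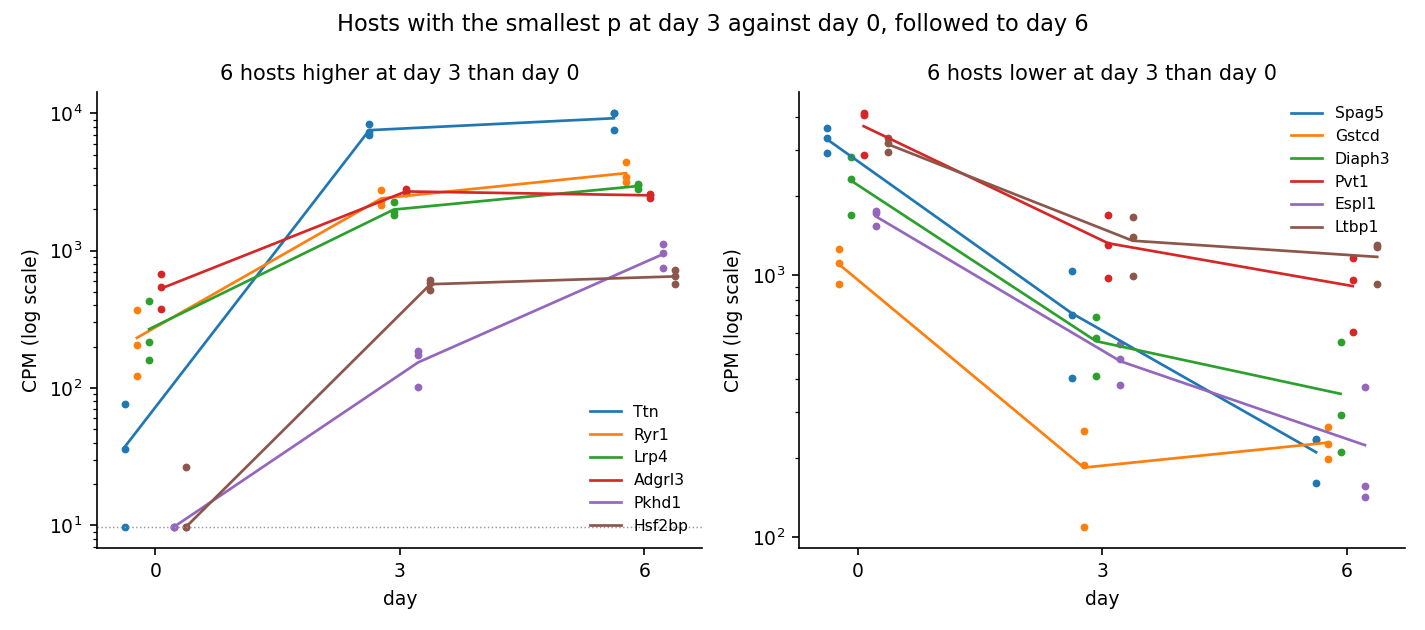
Reads summed per host in CPM (y axis, log scale) by day (x axis) for the 6 higher and 6 lower hosts with the smallest p at day 3 against day 0; points are libraries, lines join the means of 3 libraries, and values below the dotted line, set at the floor of 3 reads per library, are drawn on it. Pkhd1 rises again from day 3 to day 6 and Spag5 falls again, and the other 10 did not pass the test of day 6 against day 3.

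Over all 126 hosts higher at day 3 than at day 0, the median log2 fold change of day 6 to day 3 was 0.16, beside -0.06 over all hosts tested, and 31 had all day 6 libraries above all day 3 libraries and 12 below. Over all tested hosts those counts were 219 (5.30%) and 244 (5.90%). The 37 hosts lower at day 3 had a median of -0.07, with 2 above and 3 below without overlap. For circRNAs the medians were 0.15 over the 107 that had risen and -0.44 over the 22 that had fallen, beside -0.09 over all 8153. Of the 107, 20 were above and 7 below without overlap, and of the 22, 1 was above and 5 were below, against 307 (3.77%) and 437 (5.36%) of all tested circRNAs. These medians and counts share the day 3 libraries with the choice of the hosts, and nothing was tested on them. With other scalings of the libraries the median of all circRNAs lay between -0.10 and -0.03.

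Gene lists were described by host. The lists were chosen with earlier results of these data known, so their medians and counts are descriptive only and no list was tested. The counts of each list below stand beside these shares of all 4135 tested hosts. Both the lists and the 4135 can include hosts that passed the filter by day 0 reads alone. At an unadjusted p below 0.05, 2.30% were higher and 3.65% lower by edgeR. DESeq2 called 0.218% higher and 0.242% lower after adjustment. Without overlap between the days, 5.30% lay above and 5.90% below. Of 43 tested hosts of the dystrophin complex and costamere, the links between the contractile apparatus and the membrane, 0 passed in either direction by edgeR. At an unadjusted p below 0.05 there were 8 higher and 0 lower, and DESeq2 called Nos1, Dmd and Sorbs2 higher after adjustment. The median log2 fold change was 0.44, beside -0.03 over all hosts with genes at 0 set to their bound, and 30 of the 43 were above 0. In 8 of them all day 6 libraries were above all day 3 libraries and in 0 below, against 5.30% and 5.90% of all hosts. The 8 are Utrn, Vcl, Lrp4, Nos1, Sorbs2, Ank2, Dmd and Syne3. Sorbs2, a scaffold of the Z-disc, had 1922 ± 49 CPM at day 3 and 2980 ± 415 at day 6 (SD, n = 3, log2 fold change 0.63 ± 0.20 SE, edgeR adjusted p = 0.699, DESeq2 0.017). Vcl, which encodes vinculin, had 216 ± 105 and 511 ± 175 CPM (edgeR adjusted p = 0.736). The most abundant host of the list, Tns3, which encodes the focal adhesion protein tensin 3, had 8512, 7804 and 6959 CPM at day 3 and 10884, 14210 and 7057 at day 6, with overlap (edgeR adjusted p = 0.736, 0.019 without day 6 replicate 3 and 0.048 without a filter).

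The other muscle lists had medians closer to that of all hosts, and DESeq2 called 0 of their hosts after adjustment. Of 22 sarcomere hosts 0 passed in either direction by edgeR (0 higher and 2 lower unadjusted) and the median was 0.14, with 2 above and 3 below without overlap. Tnnt1, slow skeletal troponin T, had 230 ± 78 CPM at day 3 and 343 ± 56 at day 6, and Myh9, nonmuscle myosin, had 783 ± 151 and 693 ± 195 (SD, n = 3, edgeR adjusted p = 1 for both). Of 30 calcium handling hosts 0 passed by edgeR (3 higher and 0 lower unadjusted), with a median of 0.01, 4 above and 3 below. Asph, the host of junctin and junctate, had 3894 ± 745 and 3454 ± 291 CPM, and Pde4d, a cyclic AMP phosphodiesterase, had 1234 ± 153 and 975 ± 44 (edgeR adjusted p = 1 and 0.936).

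Of 39 hosts of fusion and myogenic regulation 0 passed by edgeR (1 higher and 0 lower unadjusted), with a median of 0.08, 4 above and 0 below. Those 4 were Boc, Bin1, Dysf and Myof. Dysf, which encodes the membrane repair protein dysferlin, had 947 ± 62 CPM at day 3 and 1390 ± 153 at day 6 (SD, n = 3, log2 fold change 0.55 ± 0.28 SE, edgeR adjusted p = 0.736). The transcription factor gene Mef2a had 1283 ± 298 and 1636 ± 133 CPM (edgeR adjusted p = 0.936). Nfix, a transcription factor gene of the fetal muscle programme and the host with most reads of this list, had 34306 ± 6400 and 30362 ± 6846 (edgeR adjusted p = 0.944). The guanine exchange factor Trio had 1920 ± 328 and 2422 ± 497 CPM (edgeR adjusted p = 0.757). Of 22 hosts of muscle energy metabolism 0 passed by edgeR (0 unadjusted), the median was -0.07 and none was separated in either direction; Phkb, a phosphorylase kinase subunit, had 2410 ± 343 and 2273 ± 135 CPM.

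**Figure D5:**
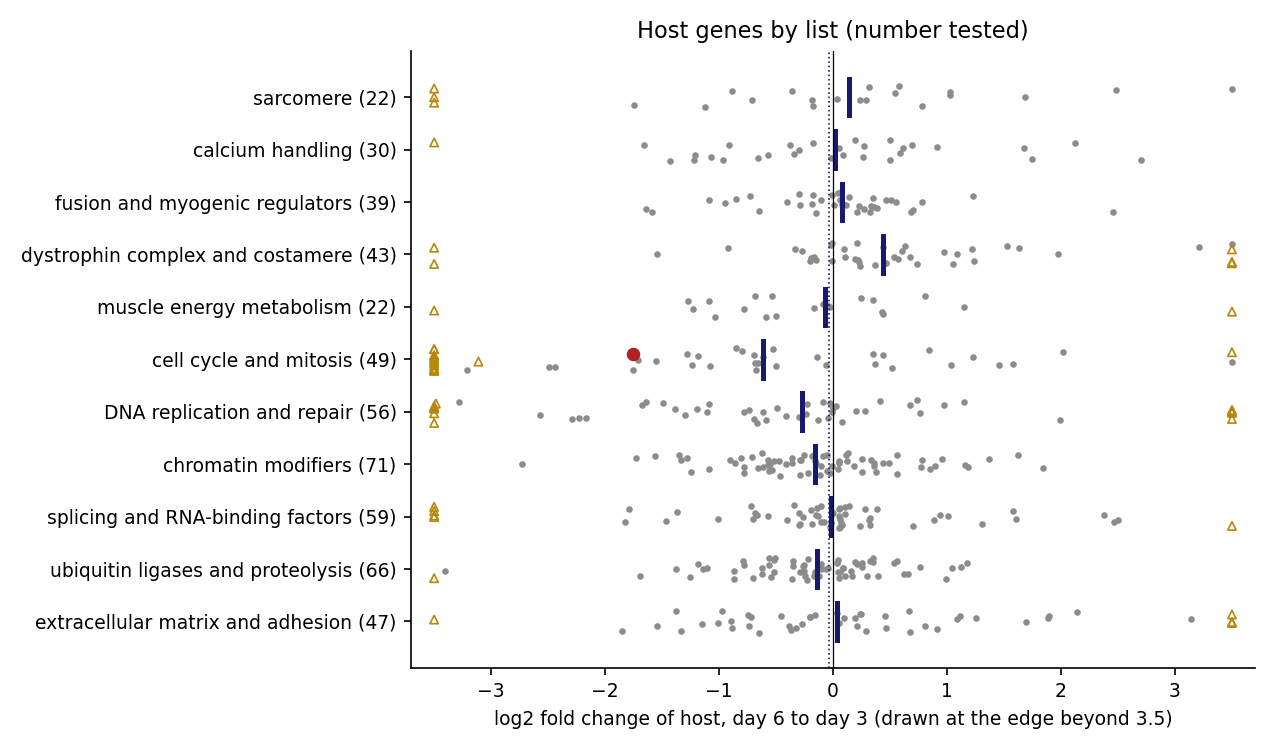
Log2 fold change of day 6 to day 3 (x axis) of each tested host in 11 gene lists (y axis, number tested in brackets), with values beyond 3.5 drawn at the edge. Grey points are hosts with reads on both days, open triangles hosts without reads on 1 day, and the red point Spag5; hosts without reads on either day are not drawn. The bar is the median of the list with genes at 0 set to their bound, and the dotted line is the same over all hosts. The bar is highest for the dystrophin complex and costamere (0.44) and lowest for cell cycle and mitosis (-0.61). The lists were chosen with earlier results of these data known.

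Cell cycle and mitosis was the only list outside the markers with a host that passed. Of 49 tested hosts 1 was lower by edgeR, Spag5, and 0 were higher. At an unadjusted p below 0.05 there were 16 lower and 1 higher, beside 3.65% and 2.30% of all hosts. DESeq2 called Spag5 and Kif14 lower and 0 higher after adjustment. For the list, the median log2 fold change was -0.61 with genes at 0 set to their bound and -1.08 as fitted. In all, 33 were below 0 and 11 above. Without overlap 7 were below and 2 above, beside 5.90% and 5.30% of all hosts. Among the 7, Cit, the citron kinase of cytokinesis, had 506 ± 114 CPM at day 3 and 280 ± 64 at day 6 (SD, n = 3, log2 fold change -0.85 ± 0.29 SE, edgeR adjusted p = 0.736). Anapc1, the largest subunit of the anaphase-promoting complex, had 872 ± 112 and 537 ± 135 CPM after 844 ± 50 at day 0 (edgeR adjusted p = 0.736). The 2 above were Cdc27, at 10.96 ± 10.6 and 135 ± 48 CPM, and Haus6, at 27.3 ± 10.4 and 64.7 ± 22.1 (edgeR adjusted p = 0.736 and 0.960).

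Of 56 hosts of DNA replication and repair 0 passed by edgeR (1 higher and 6 lower unadjusted, 0 by DESeq2), with a median of -0.27 at the bounds and -0.54 as fitted, 4 below without overlap and 0 above. The 4 were Pole2, Rrm1, Timeless and Brca2. Rrm1, a ribonucleotide reductase subunit, had 128 ± 23 CPM at day 3 and 51.7 ± 6.4 at day 6 (SD, n = 3, edgeR adjusted p = 0.736). Among the abundant hosts of the list, the mismatch repair gene Pms1 had 1742 ± 134 CPM at day 3 and 1639 ± 55 at day 6 (edgeR adjusted p = 1). Both proliferation lists hold genes whose circRNAs had few reads at day 3, and 16 of the 49 cell cycle hosts and 14 of the 56 replication hosts had no reads on 1 or both of the days.

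In the 4 remaining lists DESeq2 called 0 hosts after adjustment. Of 71 hosts of chromatin modifiers 0 passed by edgeR (1 higher and 1 lower unadjusted, median -0.16, 1 above and 8 below without overlap), and of 59 splicing and RNA-binding factors 0 passed (1 higher and 1 lower unadjusted, median -0.02, 2 above and 3 below). Gigyf2, a translational repressor and the second most abundant host of the latter list, had 11834, 10869 and 12081 CPM at day 3 and 14903, 14322 and 14173 at day 6, without overlap (log2 fold change 0.32 ± 0.12 SE, edgeR adjusted p = 0.736). Of 66 ubiquitin system hosts 0 passed (0 unadjusted, median -0.14, 2 above and 5 below), and of 47 extracellular matrix and adhesion hosts 0 passed (1 higher and 2 lower unadjusted, median 0.03, 2 above and 4 below). The 4 below were Cd44, Fn1, Col5a1 and Adam10. Fn1, which encodes fibronectin, had 808 ± 96 CPM at day 3 and 436 ± 130 at day 6 after passing as higher from 308 ± 61 at day 0 (day 6 to day 3 log2 fold change -0.89 ± 0.34 SE, edgeR adjusted p = 0.736).

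Presence and absence were also counted. Of all 37751 circRNAs in the table, 2031 had reads in all 6 libraries of the 2 days. Of 3258 with reads in all 3 day 3 libraries, 148 had reads in no day 6 library. Of these 148, 22 had reads in all day 0 libraries. In the other direction, of 2795 with reads in all 3 day 6 libraries, 83 had reads in no day 3 library. Of these 83, 4 had reads in all day 0 libraries. After thinning to the lowest library total the 148 and 83 became 148 and 81. No circRNA in either set had more than 64 reads in a library. Day 6 replicates 1 and 2 listed 7363 and 8251 circRNAs, fewer than any day 3 library (9591 to 9833), and replicate 3 listed 10780. Thinning took replicate 3 only to 10639, so it cannot show whether presence and absence depend on depth. The part of depth in these counts was not tested.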

How the data were processed

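The authors deposited 1 table of raw back-splice counts for 9 libraries, which also gives each circRNA's position, class and host gene. BWA and the builds GRCm38.p4 and mm10 are named per the submitters' processing notes, and the circRNA caller, versions and filters were not given in the sources used here. Every column of counts was matched to a sample by name, with 9 in use; the name of day 6 replicate 1 lacks the letter d of its title. No 2 libraries of a day held identical counts (chi-square per degree of freedom 11.8 to 13.1). Of circRNA starts and ends, 87.7% and 87.7% lay at an exon edge of GENCODE M21, which gave symbols (6861 of 6943 hosts), exon numbers and junctions.

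Counts per circRNA, and summed per host, were tested with edgeR 4.0.16 (R 4.3.3): TMM factors, filterByExpr with minimum count 5 and minimum total 15, group means over all 9 libraries, the quasi-likelihood F-test and Benjamini-Hochberg adjustment at 0.05. The filter kept 8153 circRNAs with 86.2% of reads and 4135 hosts with 98.4% of the reads of circRNAs that have a host. The SE of a log2 fold change is its size over the root of F. Bounds use a floor of 3 reads per library, which covers counting error only, since PCR reads without molecular identifiers are not independent molecules. The spread between libraries of 1 day was larger, so "at least" holds against that floor only. Makeup was tested with diffSpliceDGE. DESeq2 1.42.0, other scalings and filters, thinning, a replicate block and leaving out each library were alternatives. The scripts were tested on simulated data.

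Named are the circRNAs and hosts that passed, or the 5 with the smallest p where fewer did, the 6 of each direction with the smallest p at day 3 against day 0, up to 5 makeup hosts, and per list the hosts that passed and the 3 with the highest level. A host that this rule names is not reported here. Hosts of a list separated without overlap, the Zbtb38 split by boundary and Racgap1 were chosen after their values were seen. Members and lists were chosen with earlier results of these data known.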

Additional observations from a re-analysis of the deposited data

How the results depend on the processing

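The 5 lower circRNAs numbered 4 to 6 under other scalings and filters, thinning and the replicate block, and 5 to 7 when 1 library was left out. They numbered 20 by DESeq2 over all 9 libraries and 0 by edgeR with days 3 and 6 alone. Higher circRNAs numbered 2 by DESeq2 over all 9 libraries, 3 without a filter and 0 to 1 when 1 library was left out. DESeq2 with days 3 and 6 alone departed most, with 19 circRNAs higher and 22 lower, and 28 hosts higher and 9 lower. Hosts higher at day 6 numbered 9 by DESeq2 over all 9 libraries, 2 without a filter and 1 to 2 when 1 library was left out. Hosts lower numbered 10, 4 and 1 to 7 in the same order, and 0 by edgeR with days 3 and 6 alone. Hosts with a changed makeup numbered 0 with days 3 and 6 alone and 0 to 3 when 1 library was left out. DESeq2 called 321 circRNAs and 341 hosts changed at day 3 against day 0, beside 129 and 163 by edgeR, and edgeR gave 98 to 166 and 131 to 195 when 1 library was left out. The cause of these differences was not tested. The fits of days 3 and 6 alone differ from the main fit both in the number of libraries and in the features tested (5944 circRNAs and 3368 hosts). Whether same-numbered libraries are paired is not stated in the labels. Deviations of same-numbered circRNA libraries correlated at -0.031 to 0.0097, and those of different-numbered ones at -0.020 to 0.022. These values show no pairing but cannot exclude it, as noise in low counts also keeps correlations small. With the replicate block the calls numbered 5 circRNAs lower, 0 higher, 1 host higher and 3 lower, as Bub1b passed (log2 fold change -2.91, edgeR adjusted p = 0.044), and the makeup count was 1. The block gave 144 circRNAs and 188 hosts changed at day 3 against day 0, and it turned the direction of Fbn1 (-0.82).

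Leaving out 1 library turned the sign of small log2 fold changes that had not passed. The values ranged from -0.28 to 0.22 for the Bcat1 circle (0.066 without day 6 replicate 1), -0.22 to 0.11 for Ogdh (0.0023 without day 6 replicate 2), -0.20 to 0.50 for Xrcc4, -0.018 to 0.12 for Ep400, -0.28 to 0.049 for Samd4, -0.23 to 0.16 for Fbxw4, -0.17 to 0.034 for Phkb, -0.22 to 0.99 for Pax7, -0.44 to 0.10 for Runx2, -0.34 to 0.087 for Ehmt1 and -0.51 to 0.82 for Fbn1. The difference in total reads of -25166 ranged from -97775 to 19809 (2467 without day 6 replicate 2). The difference in the intronic share of 0.010 percentage points ranged from -0.098 (without day 6 replicate 3) to 0.082 (-0.017 without day 3 replicate 2).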

Other observations

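The 10 most abundant circRNAs over days 3 and 6 did not pass the test of day 6 against day 3 by edgeR (adjusted p from 0.664 to 1). The most abundant, a single-exon circle of Nfix (chr8:84771784-84772315), had 30489 ± 6407 CPM at day 3 and 26107 ± 5854 at day 6 (SD, n = 3). The next were circles of Gigyf2, at 11067 ± 725 and 13079 ± 467 CPM, of Cnot6l, a subunit of the deadenylase that shortens poly(A) tails, at 10766 ± 258 and 11186 ± 355, and of Nfkb1, a subunit of the inflammatory transcription factor NF-kappaB, at 10576 ± 1930 and 10247 ± 802. Phf21a, a chromatin reader, had 5049 ± 383 and 4711 ± 495 CPM, and Rad52, a recombination protein, had 5347 ± 427 and 5001 ± 389.

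The Nfix circle passed edgeR as lower in 6 of the 19 settings tried, with log2 fold changes from -0.41 to -0.22, although its libraries of the 2 days overlapped.

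The call of a higher circRNA that recurs when a library is left out is a second circle of Gigyf2, which passed in 8 of the 19 settings. Its start is that of the abundant Gigyf2 circle and its end lies 4 nt before it (chr1:87364104-87380004). It had 188 reads in day 6 replicate 1, 8 in day 6 replicate 3 and none in the other 7 libraries, while the abundant circle had 2824, 3194 and 5743 reads in the day 6 libraries. It was below the filter of the test over all 9 libraries.

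Dcn, which encodes the fibroblast proteoglycan decorin, had no circRNA reads at day 0 or day 3 but 53.3, 51.7 and 23.6 CPM in the day 6 libraries, which is at least 4.42-fold above day 3 (edgeR adjusted p = 0.736). It was the 1 fibroblast marker separated between the days.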
